A study of Homo sapiens with 9 samples.

Results

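RNA sequencing was used to read the activity of the p53 pathway in LNCaP cells exposed to NRG1 in medium without serum. The readout was a panel of 10 established p53 target genes: MDM2, BTG2, PLK2, GDF15, FAS, TP53INP1, ZMAT3, RRM2B, XPC and FDXR. They were taken by gene symbol from a table of 37351 genes, by a rule that uses no measured value although earlier results of these data were known, and all 10 passed the filter on low counts that left 19250 genes for testing. LNCaP is a human line from metastatic prostate carcinoma, and here it stands for 1 cell line only. Cells had been kept without serum and calcium for 6 to 12 h before recombinant NRG1, a ligand of the receptor HER3, was added at 15 ng/mL, and RNA was collected at 0, 12 and 24 h, with 3 biological replicates at each time. No library without NRG1 at 12 or 24 h was analysed here, so the ligand and the time spent in this medium cannot be told apart.

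p53 is a transcription factor that accumulates after DNA damage and other stress, and its targets arrest the cell cycle, repair DNA, alter metabolism or promote cell death. MDM2 is both a target and the main ubiquitin ligase that removes p53, so that the pathway limits itself. NRG1 signals through HER3 and its partner HER2 to the AKT and ERK kinases. PLK2 was first described as a gene induced by serum.

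p53 binds a pair of decamers, each of which is 3 purines, C, A or T, A or T, G and 3 pyrimidines. Pairs with no base between the decamers were sought within 2500 bases of the GENCODE v44 transcript start of each target on GRCh38, on both strands, as the letters that such binding could use. The best pair in each of the 6 targets printed here had at most 2 mismatches to the consensus over 20 bases, and the capitals mark the 4 central bases of each decamer. They are shown to compare the 2 targets that rose (PLK2 and GDF15) with some of the targets that fell or did not pass. Targets without such a pair are named below.
PLK2: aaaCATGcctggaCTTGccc
GDF15: catCTTGcccagaCTTGtct
ZMAT3: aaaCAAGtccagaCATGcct
BTG2: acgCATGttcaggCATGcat
MDM2: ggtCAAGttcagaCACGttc
FAS: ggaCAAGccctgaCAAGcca

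The pairs of PLK2 (chr5:58462274-58462293, minus strand, upstream of the transcript start) and ZMAT3 (chr3:179070188-179070207, minus strand, in an intron) had 0 mismatches. The other 4 had 2 mismatches and lay upstream of the canonical transcript start of GDF15 (chr19:18385308-18385327, within the wider span of the gene in the table) and of BTG2 (chr1:203303642-203303661) and in introns of MDM2 (chr12:68808923-68808942) and FAS (chr10:88991309-88991328), all on the plus strand. Of the 10 targets, 7 had a contiguous pair with at most 2 mismatches, against 3.77% of 20033 protein-coding genes in windows of the same length, and 2 had a pair with 0 mismatches, against 0.0649%. The remaining target with at most 2 mismatches was RRM2B, with 1 mismatch in an intron. The best contiguous pairs of XPC and FDXR, which did not pass, had 3 mismatches. TP53INP1, which fell at both times, had no contiguous pair with at most 3 mismatches. Such a pair was found in 9 of the 10 targets and in 21.0% of genes. When 0 to 13 bases were allowed between the decamers, 8 of the 10 targets and 39.5% of genes had a pair with at most 2 mismatches. The targets were chosen as established p53 targets, so these shares are a description and not a test. A match describes letters and not bound p53. The 2 targets with a perfect pair, PLK2 and ZMAT3, moved in opposite directions, as given below.

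**Figure D1:**
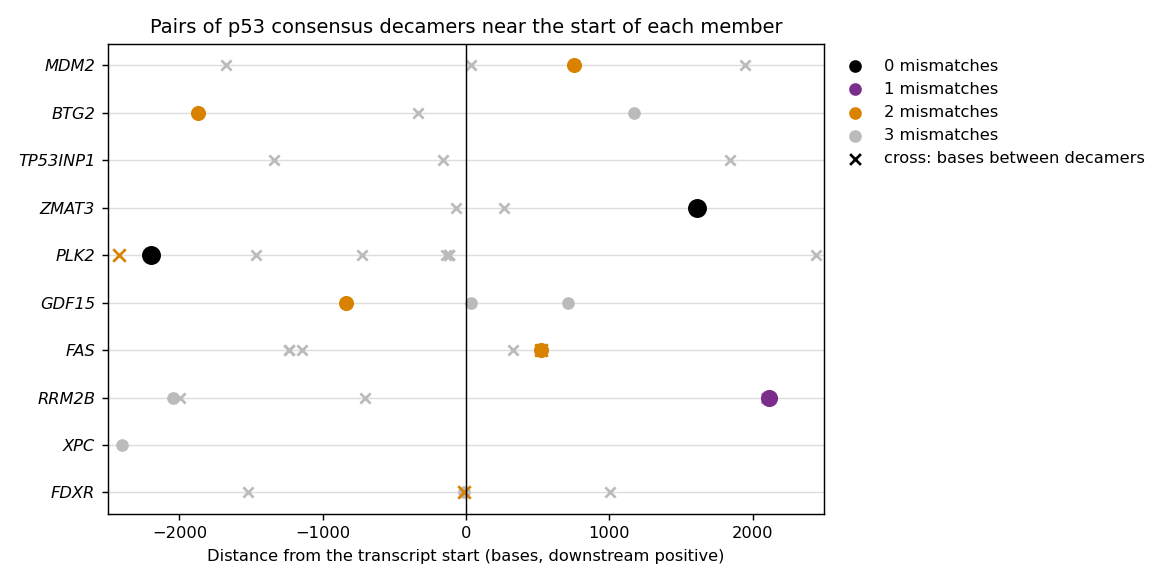
Each mark is a pair of p53 consensus decamers with at most 3 mismatches, placed by its distance in bases from the transcript start of a target, with circles for pairs without a spacer, crosses for pairs with 1 to 13 bases between the decamers and colours for the number of mismatches. Perfect pairs are seen upstream of PLK2 and downstream of the start of ZMAT3.

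Total counts were 47016302 to 60985825 per library. DUSP6, a phosphatase induced by ERK signalling, stood at a normalised level of 0.471 ± 0.131 before NRG1, 9.01 ± 0.621 after 12 h and 12.1 ± 0.831 after 24 h (CPM, read counts scaled to library size; SD, n = 3 each). All 7 of 7 luminal prostate markers exceeded 1 CPM, and their summed level was 3799 to 3838 CPM at 0 h, 3737 to 3772 CPM at 12 h and 3449 to 3586 CPM at 24 h. Of the 4 stromal markers, COL1A1 and LUM exceeded 1 CPM while COL1A2 and DCN were at or near 0, and the sum was 24.5 to 27.6 CPM at 0 h and 23.8 to 24.9 CPM at 24 h. Mitochondrially encoded genes took 5.70% ± 0.391 of counts at 0 h and 5.20% ± 0.172 at 24 h. An alternative fit that left these genes out changed no call of the targets. The cause of the difference in their share was not tested.

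The 10 targets did not move in 1 direction. PLK2 rose 2.00-fold by 12 h, whereas the rise of GDF15 and the falls of MDM2, BTG2, TP53INP1 and ZMAT3 were smaller. At 24 h against 0 h the log2 fold change was 0.27 for GDF15 and −0.29 for TP53INP1. FAS, RRM2B, XPC and FDXR did not pass the test at any time. At 12 h against 0 h, 5 of 10 targets passed an adjusted p of at most 0.05 in edgeR's quasi-likelihood test (2 higher, 3 lower), against 18.7% of all tested genes (10.6% higher, 8.16% lower). At 24 h against 0 h, 6 of 10 passed (2 higher, 4 lower), against 21.1% of all tested genes (11.6% higher, 9.48% lower). The libraries of the compared times did not overlap for 6 of 10 targets at 12 h and for 6 at 24 h, against 32.8% and 33.5% of all tested genes. Abundant genes passed more often, at 31.4% and 33.7% of the 8404 genes whose log2 CPM averaged 4 or more, a level that all the targets but FAS exceeded. Only PLK2 also changed by at least 1.5-fold, which 2.37% of genes did at 12 h and 3.31% at 24 h. The median log2 fold change of the targets was −0.042 at 12 h and −0.087 at 24 h, against −0.0084 and −0.0068 over all tested genes. In bulk RNA, fewer cells of a kind and less RNA per cell cannot be told apart. The 12 h and 24 h comparisons share the same 0 h libraries.

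**Figure D2:**
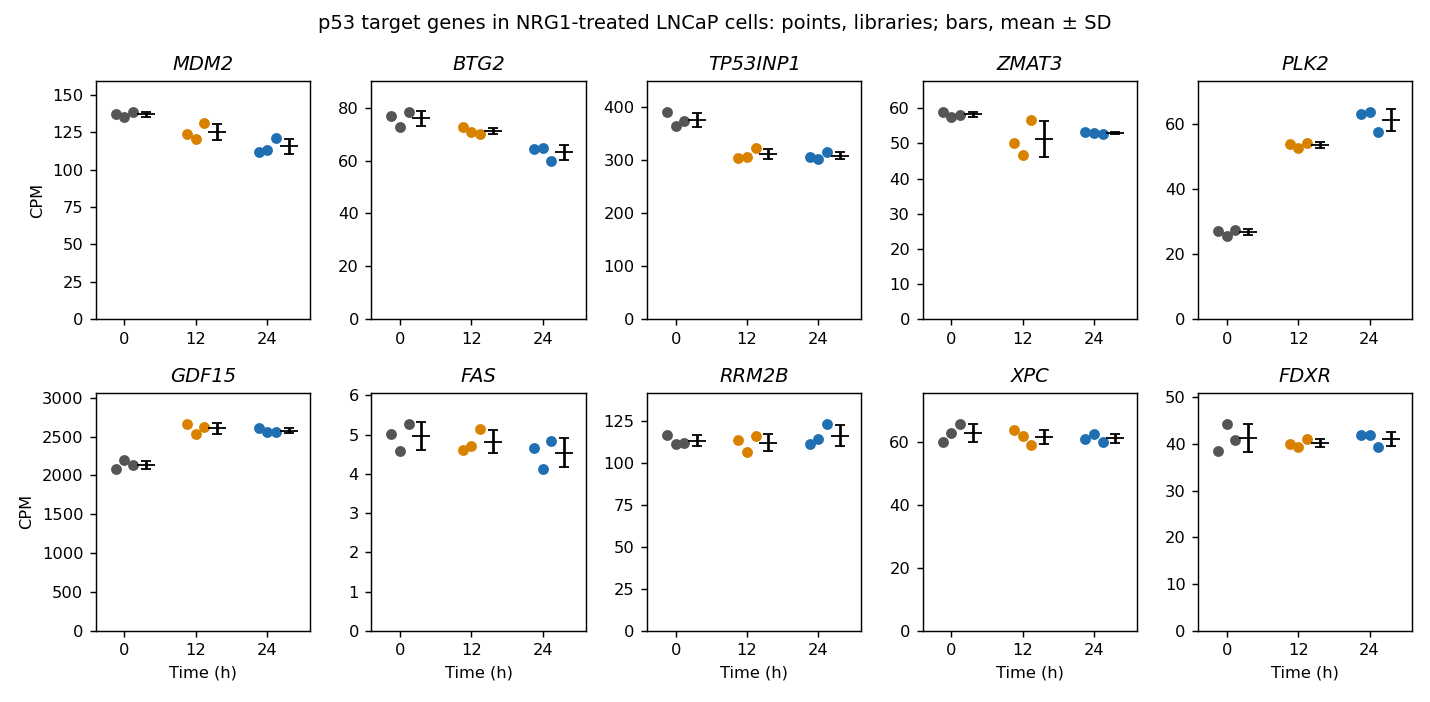
Normalised level of each target in CPM against hours of NRG1, with 1 point per library and the mean ± SD of 3 libraries beside them, and with each vertical axis starting at 0. PLK2 and GDF15 separate upward from the 0 h libraries, MDM2, BTG2, TP53INP1 and ZMAT3 lie lower at 24 h, and the other 4 targets overlap.

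Levels between genes were compared per kilobase of the canonical transcript. At 0 h, GDF15 stood far above the others with 1780 CPM per kb ± 47.1, followed by TP53INP1 (67.1 ± 2.36), BTG2 (27.8 ± 1.04), RRM2B (23.7 ± 0.644) and FDXR (22.3 ± 1.57). MDM2 (18.3 ± 0.223), XPC (17.3 ± 0.776), PLK2 (9.57 ± 0.354), ZMAT3 (6.52 ± 0.0753) and FAS (1.34 ± 0.0938) followed in CPM per kb (SD, n = 3 each). Of the neighbours in this order, RRM2B and FDXR overlapped between replicates, and the other pairs of neighbours did not. PLK2 moved from the eighth place to the sixth at 24 h, when it stood at 22.0 CPM per kb and the neighbours from RRM2B through BTG2 and FDXR to PLK2 overlapped.

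MDM2 (ENSG00000135679.26; chr12:68808177-68845544, plus strand), the ligase that marks p53 for degradation, fell in steps. Its level was 137.4, 135.3 and 138.6 CPM at 0 h, 124.0, 120.9 and 131.5 CPM at 12 h, and 112.1, 113.2 and 121.5 CPM at 24 h in replicates 1 to 3. All 0 h libraries were above all later ones, while 12 h and 24 h overlapped. The log2 fold change was −0.13 ± 0.037 at 12 h (SE; adjusted p = 0.0104) and −0.25 ± 0.037 at 24 h (SE; adjusted p = 2.9e-06), and the latter is a fall of 15.7%. Leaving out 0 h replicate 3 (−0.12, adjusted p = 0.0511), 12 h replicate 1 (−0.12, adjusted p = 0.0536) or 12 h replicate 2 (−0.10, adjusted p = 0.093) ended the 12 h call, and the 24 h call held in every fit that left out 1 library.

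BTG2 (ENSG00000159388.6; chr1:203305491-203309602, plus strand), an antiproliferative cofactor of mRNA deadenylation, fell at 24 h. Its level was 76.7, 72.8 and 78.3 CPM at 0 h, 72.5, 70.8 and 70.1 CPM at 12 h, and 64.5, 64.8 and 59.9 CPM at 24 h. The 24 h libraries were below all others, and each 12 h library was below each 0 h library by a narrow margin. Its log2 fold change was −0.093 ± 0.039 at 12 h (SE; adjusted p = 0.0965), which did not pass, and −0.27 ± 0.039 at 24 h (SE; adjusted p = 2.55e-06). Without 0 h replicate 2, the 12 h value was −0.12 and passed (adjusted p = 0.0401).

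PLK2 (ENSG00000145632.15; chr5:58453982-58460139, minus strand), a polo-like kinase of centriole duplication and stress checkpoints, gave the largest change of the 10 targets. Its level was 27.1, 25.6 and 27.4 CPM at 0 h, 53.9, 52.4 and 54.1 CPM at 12 h, and 62.8, 63.6 and 57.4 CPM at 24 h. The 3 times did not overlap. PLK2 rose 2.00-fold at 12 h (log2 fold change 1.00 ± 0.046 SE, adjusted p = 8.79e-19) and 2.30-fold at 24 h (1.20 ± 0.045 SE, adjusted p = 1.93e-21), and these calls held under every alternative run. PLK2 and BTG2 are both listed for growth arrest and moved in opposite directions.

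GDF15 (ENSG00000130513.6; chr19:18374731-18389176, plus strand), a secreted cytokine of the TGF-β superfamily that is induced by many stresses, was the most abundant target. Its level was 2082, 2195 and 2131 CPM at 0 h, 2667, 2534 and 2626 CPM at 12 h, and 2611, 2555 and 2562 CPM at 24 h. The later libraries were all above the 0 h libraries and overlapped each other. GDF15 rose 1.22-fold at 12 h (log2 fold change 0.29, adjusted p = 4.77e-09) and was 1.21-fold above 0 h at 24 h (0.27, adjusted p = 1.27e-08).

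FAS (ENSG00000026103.22; chr10:88990531-89017059, plus strand), the death receptor, was the least abundant target, with 218 to 311 counts per library. Its level was 4.59 to 5.28 CPM at 0 h, 4.60 to 5.14 CPM at 12 h and 4.12 to 4.84 CPM at 24 h, and the times overlapped. For FAS the log2 fold change was −0.044 at 12 h (95% interval −0.27 to 0.18, adjusted p = 0.844) and −0.13 at 24 h (95% interval −0.35 to 0.092, adjusted p = 0.46). These intervals do not exclude a change of a size that lies within them. ACTA2 overlaps FAS on the other strand and held 30.5% as many counts, and because the strand setting was not stated, the reads of both cannot be told apart.

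TP53INP1 (ENSG00000164938.14; chr8:94925972-94949378, minus strand), a nuclear protein that promotes cell death and autophagy, fell by 12 h and stayed there. Its level was 390.5, 364.5 and 373.1 CPM at 0 h, 304.5, 306.1 and 322.1 CPM at 12 h, and 305.6, 302.9 and 315.1 CPM at 24 h. Every later library was below every 0 h library. The fall was −0.27 in log2 units at 12 h (adjusted p = 6.63e-08) and −0.29 at 24 h (adjusted p = 1.49e-08). NDUFAF6 overlaps it on the other strand with 5.99% as many counts.

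ZMAT3 (ENSG00000172667.11; chr3:178960121-179072215, minus strand), a zinc finger protein that binds RNA, gave a smaller and less stable fall. Its level was 58.9, 57.6 and 58.2 CPM at 0 h, 50.1, 46.8 and 56.7 CPM at 12 h, and 53.2, 52.8 and 52.6 CPM at 24 h. The 0 h libraries were above all others, although 12 h replicate 3 lay close to them. Against 0 h, the log2 fold change was −0.19 at 12 h (adjusted p = 0.00434) and −0.14 at 24 h (adjusted p = 0.033). The 12 h call was lost without 12 h replicate 2 (−0.12, adjusted p = 0.078), and the 24 h call was lost without any 1 of the 6 libraries at 0 h and 24 h (−0.15 to −0.13, adjusted p = 0.0511 to 0.0993) and in DESeq2 (adjusted p = 0.0655). ZMAT3 shares stretches of 302 to 310 bases at over 95% identity with transcripts of CDC42, FOXK1, MFN1 and ZNF883, so its counts are uncertain to that extent.

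The 3 targets of nucleotide supply, DNA repair and mitochondrial redox stayed within narrow limits. RRM2B (ENSG00000048392.12; chr8:102204502-102238961, minus strand), a subunit of ribonucleotide reductase, was at 113 CPM ± 3.08, 112 CPM ± 4.84 and 116 CPM ± 6.31 at 0, 12 and 24 h (SD, n = 3 each). XPC (ENSG00000154767.15; chr3:14145147-14178621, minus strand), which recognises damage in nucleotide excision repair, was at 63.0 CPM ± 2.83, 61.6 CPM ± 2.33 and 61.1 CPM ± 1.30. FDXR (ENSG00000161513.12; chr17:74862497-74873031, minus strand), a mitochondrial reductase that passes electrons to ferredoxin, was at 41.2 CPM ± 2.90, 40.1 CPM ± 0.874 and 41.0 CPM ± 1.55. The times overlapped for each. At 24 h against 0 h the 95% intervals of the log2 fold change were −0.041 to 0.12 for RRM2B, −0.13 to 0.040 for XPC and −0.10 to 0.089 for FDXR, so a change of the size seen in MDM2 or BTG2 at 24 h lay outside each interval.

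**Figure D3:**
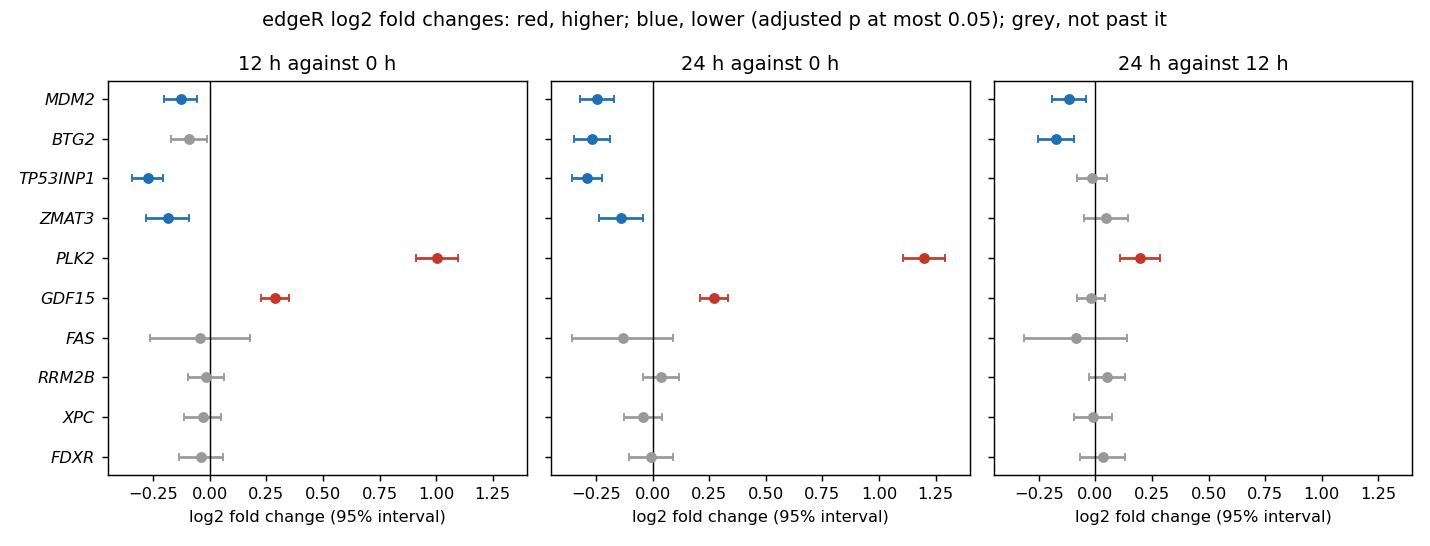
Log2 fold change of each target in the 3 comparisons, with bars for the 95% interval, red for higher and blue for lower at an adjusted p of at most 0.05, and grey for the rest. PLK2 stands apart at 1.00 and 1.20, and the falls that passed lie between −0.29 and −0.12.

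Between 12 h and 24 h, 3 of 10 targets passed (1 higher, 2 lower), against 6.08% of all tested genes (3.03% higher, 3.05% lower) and 10.7% of the abundant ones. The libraries of these times did not overlap for 2 of 10 targets, against 24.4% of all tested genes. PLK2 rose further by 0.20 on the log2 scale (SE 0.043, adjusted p = 0.00351). BTG2 fell by 0.17 (SE 0.040, adjusted p = 0.00475), but without 24 h replicate 3 its value was −0.14 and did not pass (adjusted p = 0.0588). MDM2 fell by 0.12 (adjusted p = 0.0493), a call that any 1 of 5 libraries decided (0 h replicate 3, 12 h replicates 1 and 3, 24 h replicates 1 and 2; −0.13 to −0.084 without it, adjusted p = 0.0668 to 0.283). TP53INP1 and GDF15 had reached their 24 h level by 12 h, with later differences of −0.014 (adjusted p = 0.882) and −0.018 (adjusted p = 0.825). In the test of any difference among the 3 times, 6 of the 10 targets passed, against 25.1% of all tested genes.

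A wider list of 50 p53 targets, of which 49 could be tested, was also mixed in direction. At 12 h 10 passed (4 higher, 6 lower) and at 24 h 18 passed (6 higher, 12 lower), against 18.7% and 21.1% of all tested genes. The share at 12 h, 20.4%, was close to that of all genes, and at 24 h it was 36.7%, against 33.7% of abundant genes. The median log2 fold change was −0.019 and −0.026. Among the 10 genes of the cell cycle, 3 passed at 12 h and 5 at 24 h, against the same 18.7% and 21.1% of all tested genes. PLK3, a further polo-like kinase, rose from 5.72 CPM ± 0.331 to 15.5 CPM ± 0.562 at 12 h (log2 fold change 1.44, adjusted p = 8.02e-17) and to 15.8 CPM ± 0.936 at 24 h (1.46, adjusted p = 2.58e-17). SESN1, a sestrin that restrains mTORC1, moved the other way, from 82.5 CPM ± 0.752 to 57.7 CPM ± 1.56 (−0.52, adjusted p = 8.2e-13) and 51.5 CPM ± 1.81 (−0.68, adjusted p = 2.97e-16). CDKN1A encodes the cyclin-dependent kinase inhibitor p21. It was at 267.0, 282.2 and 281.9 CPM at 0 h, at 277.5, 263.1 and 278.7 CPM at 12 h, and at 241.2, 243.7 and 244.3 CPM at 24 h. The 24 h libraries of CDKN1A were below all others, with a log2 fold change of −0.021 at 12 h (adjusted p = 0.736) and −0.19 at 24 h (adjusted p = 3.21e-05). GADD45A, a stress sensor, passed at 12 h (−0.20, adjusted p = 0.00896). That call was lost without 0 h replicate 3 (−0.17, adjusted p = 0.0653) and with GC and length trends removed (−0.14, adjusted p = 0.082). At 24 h GADD45A had −0.14 (adjusted p = 0.0828), which passed without 0 h replicate 1 (−0.19) or 24 h replicate 3 (−0.20).

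Of 13 tested apoptosis targets, 3 passed at 12 h (23.1%) and 4 at 24 h (30.8%), against 18.7% and 21.1% of all tested genes. TNFRSF10A, a TRAIL death receptor, rose by 0.40 at 12 h (adjusted p = 1.83e-07) and by 0.27 at 24 h (adjusted p = 8.01e-05) on the log2 scale. PMAIP1, the BH3-only protein NOXA, had 0.069 at 12 h (adjusted p = 0.417) and rose by 0.30 at 24 h (adjusted p = 3.89e-05). PHLDA3, which restrains AKT, fell by 0.16 at 24 h (adjusted p = 0.000933). At 12 h PHLDA3 had −0.11 (adjusted p = 0.0306) and PERP, a desmosomal protein, had 0.095 (adjusted p = 0.0428). Their calls were lost in 7 and 10 of 18 alternatives, with PHLDA3 at −0.11 to −0.092 without 1 of 5 libraries (0 h replicates 2 and 3 and every 12 h replicate). PERP was at 0.081 to 0.095 without 1 of 6 (0 h replicates 1 and 3, 12 h replicates 1 and 2, 24 h replicates 1 and 2).

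Of 10 targets in repair and metabolism, 2 passed at 12 h and 4 at 24 h, all lower, against 8.16% and 9.48% of all tested genes that passed as lower. At 24 h RPS27L, a ribosomal protein paralogue, had −0.16 (adjusted p = 0.00156), DDB2, a sensor of ultraviolet damage, had −0.21 (adjusted p = 0.00408), and CMBL, a hydrolase, had −0.13 (adjusted p = 0.00738). DRAM1, a lysosomal protein of autophagy, had −0.21 at 24 h (adjusted p = 0.0089). The 24 h call of CMBL was lost without 24 h replicate 3 (−0.10), and that of DRAM1 without 0 h replicate 3 or 24 h replicate 2 (both −0.16). The 2 calls at 12 h were RPS27L (−0.13, adjusted p = 0.0134) and DRAM1 (−0.18, adjusted p = 0.0335). That of RPS27L was lost without 0 h replicate 3 or 12 h replicate 1 (−0.093 and −0.094). That of DRAM1 was lost without any 1 of 0 h replicates 2 and 3 and the 12 h replicates (−0.19 to −0.13), and in DESeq2 (adjusted p = 0.064). Both were also lost with GC and length trends removed (adjusted p = 0.0716 for RPS27L and 0.0511 for DRAM1).

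Of 16 feedback and other targets, 2 passed at 12 h (12.5%, below the 18.7% of all tested genes) and 5 at 24 h (31.2%, against 21.1%). EPHA2, a receptor tyrosine kinase, rose by 0.54 at 12 h (adjusted p = 4.62e-07) and by 0.67 at 24 h (adjusted p = 3.16e-09). SUSD6 fell by 0.15 at 12 h (adjusted p = 0.00553), a call lost without 12 h replicate 2 (−0.12), and by 0.16 at 24 h (adjusted p = 0.00358). KITLG, the ligand of the receptor KIT, had −0.31 at 12 h (adjusted p = 0.0613) and −0.39 at 24 h (adjusted p = 0.0167). The KITLG calls changed with 1 library, as it passed at 12 h without 0 h replicate 3 (−0.37) or 12 h replicate 1 (−0.41) and did not at 24 h without 1 of 0 h replicate 1 and 24 h replicates 1 and 2 (−0.37 to −0.31).

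**Figure D4:**
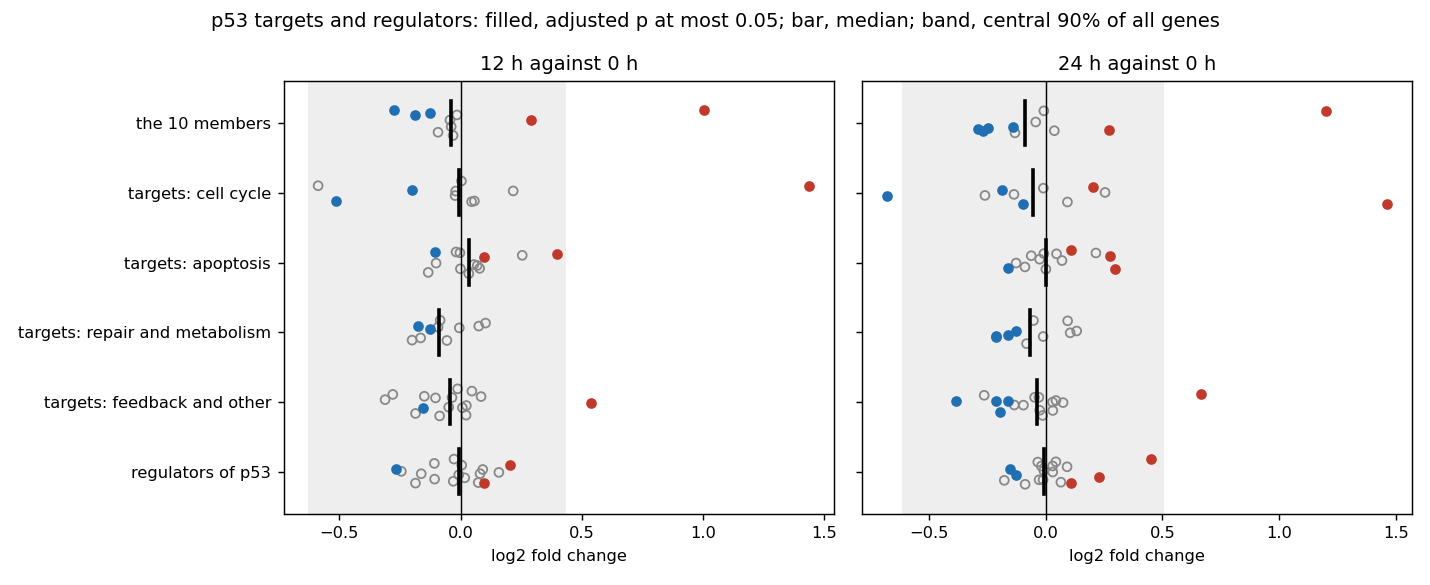
Log2 fold changes at 12 h and 24 h against 0 h of the 10 targets, of 49 further p53 targets grouped by role and of 17 p53 regulators, with filled points past an adjusted p of 0.05, bars at the medians and grey bands over the central 90% of all tested genes. PLK2, PLK3 and EPHA2 lie above the band at both times and SESN1 lies below it at 24 h.

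Of 17 tested regulators of p53, 3 passed at 12 h (2 higher, 1 lower) and 5 at 24 h (3 higher, 2 lower). These are 17.6% and 29.4%, against 18.7% and 21.1% of all tested genes. MDM4, the inhibitory partner of MDM2, was at 40.1 CPM ± 1.24, 37.2 CPM ± 1.86 and 39.4 CPM ± 2.40 and did not pass (adjusted p = 0.121 at 12 h and 0.757 at 24 h).

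CDKN2A, the locus of p16 and of the MDM2 inhibitor ARF, rose by 0.20 at 12 h (adjusted p = 0.00572) and by 0.45 at 24 h (adjusted p = 2.69e-08), and counts per gene do not separate its products. CREBBP, an acetyltransferase that acts on p53, fell by 0.27 at 12 h (adjusted p = 9.6e-06) and had −0.088 at 24 h (adjusted p = 0.146). ATR, a kinase of the damage checkpoint, had 0.080 at 12 h (adjusted p = 0.355) and rose by 0.23 at 24 h (adjusted p = 0.00225). COP1, another ubiquitin ligase of p53, had 0.017 at 12 h (adjusted p = 0.852) and −0.15 at 24 h (adjusted p = 0.0096), which was lost without 24 h replicate 2 (−0.14).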

How the data were processed

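LNCaP cells treated with NRG1 were profiled at 0, 12 and 24 h in 3 libraries each. Per the study's methods, mRNA libraries were sequenced as 150-base read pairs, trimmed with Cutadapt, aligned to GRCh38 with STAR and counted with featureCounts on GENCODE genes. The authors deposited raw whole-number counts, without normalization or pooling. Strandedness and the treatment of multi-mapping reads were not given in the sources used here. The methods state that 1 LNCaP replicate at time 0 was left out for quality, and the captions, which count 3 replicates for NRG1 and fewer for some samples of the other ligand tested, asporin, place it with the latter. No library at 0 h was dropped here, and alternatives leave each one out. The 14 empty columns were not used.

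Groups came from sample titles. Counts were filtered with filterByExpr (19250 genes), scaled with TMM and tested with edgeR 4.0.16 (R 4.3.3; robust quasi-likelihood fit of all 9 libraries, no covariate, two-sided), with Benjamini-Hochberg adjustment over all tested genes and a threshold of 0.05. The study's 1.5-fold threshold is counted beside it. The common biological coefficient of variation was 4.07%. CPM use TMM-scaled library sizes, and standard errors come from the F statistic. Depth covers counting error only, since reads had no molecular identifiers. The members and lists were chosen with earlier results of these data known, and the text names all members, MDM4, listed genes past 0.05 and 1.5-fold, and in each list the 3 lowest adjusted p-values at 12 h and at 24 h. Some genes that meet these rules are not reported here. Similar genes were sought above an average log2 CPM of 2. Gene coordinates are those of the table. Copies were matches of at least 95% over 150 bases in GENCODE v44 transcripts. The 18 alternatives included DESeq2 1.42.0, other filters and scalings, the replicate block, mitochondrially encoded genes left out and each library left out. Another, removal of GC and length trends, was chosen after seeing the data. Methods were tested on simulated data.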

Additional observations from a re-analysis of the deposited data

Results flagged for a closer look

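In 3 targets the effect of the later time differed from that of the earlier one by a direct test (24 h against 12 h, edgeR quasi-likelihood, Benjamini-Hochberg over all tested genes). The log2 fold change between these times was 0.20 for PLK2 (adjusted p = 0.00351; higher at 24 h in every library), −0.17 for BTG2 (adjusted p = 0.00475; lower at 24 h in every library) and −0.12 for MDM2 (adjusted p = 0.0493; 12 h and 24 h libraries overlapped). The call of BTG2 was lost without 24 h replicate 3 (−0.14) and that of MDM2 without any 1 of 5 libraries (0 h replicate 3, 12 h replicates 1 and 3, 24 h replicates 1 and 2; −0.13 to −0.084).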

How the results depend on the processing

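For the 10 targets, 520 of 540 values under 18 alternatives kept their side of the threshold, 19 lost the call and 1 gained it. Of the values that passed in either fit, 0 reversed direction. Values that passed in neither fit could change sign, such as FAS at 12 h (−0.095 to 0.067) and RRM2B at 24 h (−0.0072 to 0.068). With a fold of at least 1.5 added, the calls at 12 h, at 24 h and between them were 1, 1 and 0 of the targets, 1, 3 and 0 of the further targets, 0, 0 and 0 of the regulators and 457, 638 and 87 of all genes (3605, 4065 and 1171 without it). Removing GC and length trends gave 6 further targets (10 otherwise) and 6 regulators (3 otherwise) at 12 h, DESeq2 gave 5 regulators at 12 h, and testing all genes with a count gave 5 regulators between 12 h and 24 h (3 otherwise). The cause was not tested. MDM2 lost its 12 h call with GC and length trends removed (−0.096, adjusted p = 0.0933) and its later call with no scaling factor (−0.11, adjusted p = 0.0875). With 1 library left out, the counts were 3 to 6, 5 to 6 and 2 to 3 for the targets (3 at 12 h without 12 h replicate 2), 6 to 11, 15 to 18 and 2 to 5 for the further targets, 2 to 4, 2 to 5 and 2 to 5 for the regulators, and 2746 to 3721, 3284 to 4011 and 702 to 1453 for all genes. Further targets were 6 at 12 h without 0 h replicate 3 or 12 h replicate 2, and between the later times 3 without 12 h replicate 1 or 3 and 2 without 24 h replicate 2. Regulators were 3 and 2 at 24 h without 24 h replicate 1 or 2, and 5 between the later times without 0 h replicate 1 or 12 h replicate 3. Calls of all genes between the later times were 778 and 702 without 12 h replicate 1 or 2, and 767 without 24 h replicate 3. With the replicate number as a block, the targets gave 5, 6 and 3 calls, the further targets 10, 19 and 5, the regulators 4, 5 and 3 and all genes 3672, 4081 and 1262, and GADD45A passed at 24 h (−0.14, adjusted p = 0.0453). The numbers did not pair the samples, since deviations from the group means correlated between libraries of the same number at −0.0367 to 0.0295 and 2 of 9 libraries correlated best with their own number.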

Other observations

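The genes whose log2 CPM followed each changing target most closely over the 9 libraries are given as a description, since the libraries fall into 3 times and many genes share such a course. For PLK2 they were LOX, a lysyl oxidase (Pearson r = 0.997), CADPS2, a protein of vesicle release (0.996), and ATP1B1, a subunit of the sodium pump (0.996). For GDF15 they were NIFK (0.987), PLK3 (0.987) and NOP16 (0.986). For TP53INP1 they included STXBP5L (0.994) and USP9Y (0.990). MDM2 was followed by PJA2, a ubiquitin ligase (0.973), SEC23A, a coat protein of secretory vesicles (0.971), and TNKS2, a tankyrase (0.964). BTG2 was followed by RP1-276N6.2 (0.982), TSPAN1, a tetraspanin (0.970), and CWC15, a splicing factor (0.967). The highest values for ZMAT3 were those of PXN, the adhesion protein paxillin (0.975), TSC1, an inhibitor of mTORC1 (0.966), and SOGA1 (0.960).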
